A study of Drosophila melanogaster with 2 samples.

Results

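The peaks described here lie at divergent promoters, where a gene on the plus strand and a gene on the minus strand start close together. They were taken from the reproducible dm6 peak list of a chromatin immunoprecipitation sequencing study of Ftz-F1. A peak was a member when it was not on the X chromosome and its summit lay within 500 bp of annotated transcript starts on both strands. The list held 3960 peaks, of which 3416 were off the X and 2106 of those were promoter peaks, with a start on at least 1 strand within 500 bp. Members numbered 602, which is 28.6% of the promoter peaks off the X (95% Wilson interval 26.7 to 30.6). The other 1504 promoter peaks off the X, with starts on 1 strand only, are called one-strand peaks and serve as the comparison. From 2L to 4, members made up 127 of 449 promoter peaks on 2L, 144 of 533 on 2R, 132 of 483 on 3L, 197 of 637 on 3R and 2 of 4 on chromosome 4.

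The chromatin was that of entire fly embryos (Drosophila melanogaster, both sexes, 0 to 24 hours old) of a transgenic line that stably makes Ftz-F1 with a green fluorescent protein at its C-terminal end. The tagged protein was precipitated with an antibody against the tag. There was 1 group, with 2 libraries numbered replicate 1 and replicate 4, and no second condition, so a peak is an average over all cell types and ages in the collection. Nothing in the labels says that the replicates came from separate cultures, and peak lists do not give read depth; intervals cover counting error only and p-values describe these lists.

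Ftz-F1 is an orphan nuclear receptor that binds DNA as a monomer, at sites built on a nuclear receptor core with a short extension at its 5′ side. In the early embryo it works with Fushi tarazu, a homeodomain protein, to lay down segments, and later it makes tissues competent to respond to the steroid hormone ecdysone. In the compact fly genome many housekeeping genes sit head to head and share 1 stretch of promoter DNA. Such promoters are known for sites of DREF, a factor of replication and growth genes, of BEAF-32, an insulator protein, and of M1BP, a factor of ribosomal protein and other constitutive promoters.

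The stretches between the 2 starts of 7 members show what such promoters look like. Each runs from the base after the minus-strand gene's start to the base before the plus-strand gene's start, on the plus strand of dm6, outside every annotated exon, and was read from the RefSeq copy of the release 6 assembly. Members are written as minus-strand gene, slash, plus-strand gene, and capitals mark the motif. The first shows the only full Ftz-F1 type site (CAAGGTCA) among the 20 strongest members and the next a match to a looser form (CAAGGNC). Then follow the DREF type site (TATCGATA) at members with a wide and a narrow stretch, the M1BP type site (GGTCACACT) at a pair of members with narrow stretches, and the TATA type sequence (TATAAA).
pygo/rod (chr3R:31580700-31580950): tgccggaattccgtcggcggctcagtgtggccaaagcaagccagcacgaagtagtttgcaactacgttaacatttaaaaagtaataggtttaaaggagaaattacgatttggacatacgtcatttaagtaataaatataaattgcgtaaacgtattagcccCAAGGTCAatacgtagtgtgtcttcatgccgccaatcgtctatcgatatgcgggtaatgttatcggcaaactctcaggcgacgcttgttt
RpS28a/Axn (chr3R:30022649-30022841): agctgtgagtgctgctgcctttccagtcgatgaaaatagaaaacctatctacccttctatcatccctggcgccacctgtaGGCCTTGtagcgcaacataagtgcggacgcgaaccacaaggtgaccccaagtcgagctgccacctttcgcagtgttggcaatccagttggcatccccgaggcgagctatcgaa
EloB/Srp14 (chr3R:20579851-20580114): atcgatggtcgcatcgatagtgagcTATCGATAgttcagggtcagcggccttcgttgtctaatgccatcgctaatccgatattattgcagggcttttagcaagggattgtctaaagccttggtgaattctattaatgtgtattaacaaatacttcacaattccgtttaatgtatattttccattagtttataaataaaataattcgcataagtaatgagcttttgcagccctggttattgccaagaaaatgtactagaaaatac
Rop/Ras64B (chr3L:4138997-4139075): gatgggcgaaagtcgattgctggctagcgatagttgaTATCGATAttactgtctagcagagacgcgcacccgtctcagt
Ripalpha/RpL7 (chr2L:10200975-10201003): cccactccgcggccAGTGTGACCgtttgg
Mi-2/Prp3 (chr3L:19910216-19910299): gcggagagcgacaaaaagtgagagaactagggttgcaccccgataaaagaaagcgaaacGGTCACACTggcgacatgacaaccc
CG9641/CG3165 (chr2L:2976863-2977121): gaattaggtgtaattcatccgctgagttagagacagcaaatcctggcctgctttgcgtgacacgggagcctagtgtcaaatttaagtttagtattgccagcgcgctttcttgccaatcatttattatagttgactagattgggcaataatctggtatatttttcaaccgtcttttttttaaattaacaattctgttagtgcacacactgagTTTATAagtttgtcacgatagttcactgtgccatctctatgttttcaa
In pygo/rod the summit was base 102 of 251 and the site began at base 162. In RpS28a/Axn the summit was base 128 of 193 and the match, on the minus strand, began at base 81. In EloB/Srp14 the summit was base 51 of 264 and the site began at base 26. In Rop/Ras64B the site began at base 38 and the summit was base 47 of 79. In the 29 bases of Ripalpha/RpL7 the site began at base 15, and the summit lay outside the stretch, on the side of RpL7. In Mi-2/Prp3 the summit was the last of 84 bases and the site began at base 60. In CG9641/CG3165 the summit was base 205 of 259 and the sequence began at base 212.

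At almost all members the genes of the nearest starts pointed away from each other. The nearest starts were head to head at 570 of the 602 peaks (94.7%, 92.6 to 96.2), and at the other 32 the plus-strand start lay to the left of the minus-strand start, so the transcripts overlap. The members fell on 554 different pairs of nearest starts' genes, and 47 pairs held more than 1 peak, with at most 3 at Pax/Alp12. Pax encodes paxillin, a protein of focal adhesions. After overlapping members were merged, 565 runs were left, and 74 peaks shared a run with another member, so peaks are not all separate promoters.

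Summits mostly lay in the stretch between the starts. The summit was between the nearest starts at 410 of the 602 members (68.1%, 64.3 to 71.7). The share was 396 of 570 head-to-head members (69.5%, 65.6 to 73.1) and 14 of the 32 overlapping ones (43.8%). The distance between head-to-head starts had a median of 243.5 bp (quartiles 115 and 315) and ranged from 1 to 783 bp. Wider stretches held the summit more often: 42.5% of the 127 members with at most 100 bp between the starts, 71.3% of 87 over 100 and up to 200 bp, 75.3% of 190 up to 300 bp, 78.6% of 98 up to 400 bp and 88.2% of 68 beyond that. A wider stretch has more room for a summit, and no test was made of this order. The rule also bears on it: with starts over 500 bp apart, a summit within 500 bp of both must lie between them. The share of all members with the summit between the starts moved with the limit, to 74.7% at 250 bp and 58.5% at 1000 bp. Within the stretch, counted from the minus-strand start as 0 to the plus-strand start as 1, the 396 summits had quartiles of 0.255, 0.539 and 0.774, and 47.0% were in the middle 50% of the stretch. By these quartiles the relative position was spread over the stretch, which was not tested against an even spread. They pool stretches of very different width, so they cannot show whether summits kept a set distance in bp from a start.

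**Figure D1:**
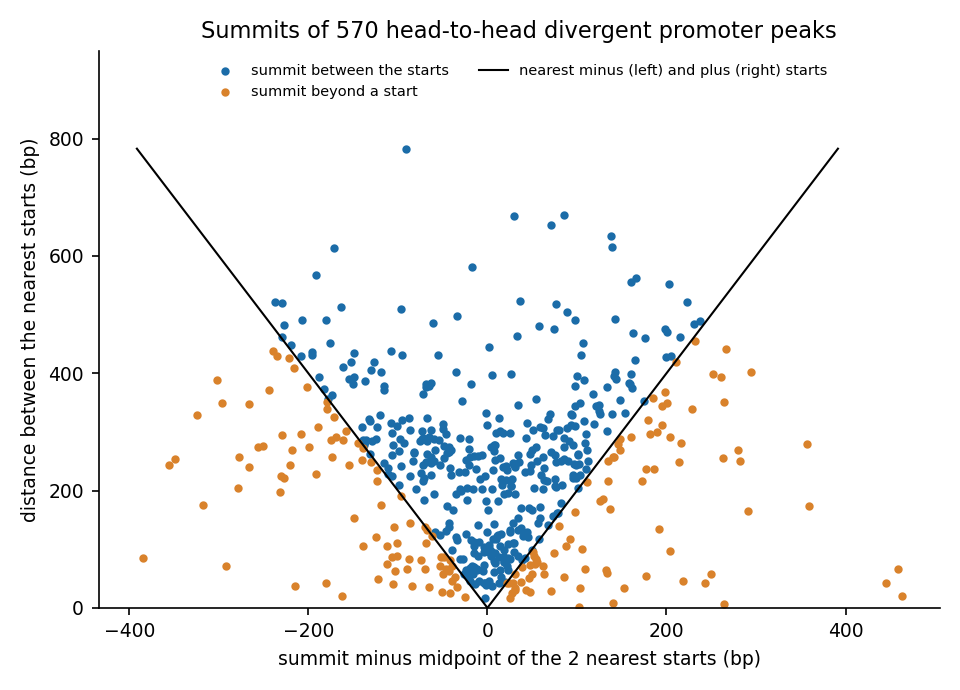
Position of each of 570 head-to-head summits relative to the midpoint of the 2 nearest starts (horizontal axis, bp, minus-strand gene to the left) against the distance between these starts (vertical axis, bp), with black lines at the starts. The 396 summits between the starts lie within the lines, and those beyond a start are more frequent where the starts are close together.

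The nearer start was that of the plus-strand gene at 316 members and that of the minus-strand gene at 286. Its distance to the summit had a median of 47 bp in members (quartiles 20 and 89) and 88 bp in one-strand peaks (quartiles 35 and 195). Members have starts on both sides to be near to, so the shorter distance follows in part from how they were chosen, and it was not tested. The farther start lay a median of 202.5 bp away. The summit was upstream of the nearest start at 411 of 602 members (68.3%, 64.4 to 71.9) and 834 of 1504 one-strand peaks (55.5%, 52.9 to 57.9). A summit between head-to-head starts is upstream of both. A summit far downstream of a start may lie outside the limit of the other start and count as one-strand. This difference too thus follows in part from how members were chosen, and it was not tested. Just inside the 500 bp limit was Pax/Alp12, with the farther start 500 bp away. Just outside it were the peak near E(bx) and mthl14, at 501 bp, and the peak near Asap and Nup50, at 502 bp.

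Most members lay at pairs of protein-coding genes. Both genes were protein-coding at 528 members (87.7%, 84.8 to 90.1), 1 of them at 66 and neither at 8. A non-coding RNA gene faced a protein-coding gene at 57 members, and the protein-coding start was the nearer one at 35 of these (61.4%, 48.4 to 72.9). The nearest starts were those of a pair of tRNA genes at 7 members, whose signal values ranged from 93.9 to 408. The tRNA genes have near-identical copies, so how reads were split among them is uncertain. The median signal value was 135 for coding pairs, 137 for the pairs of a non-coding RNA gene and a coding gene and 139 for tRNA pairs. These medians differed by far less than the range within any of the 3 kinds.

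The signal value is the authors' own per peak, on a scale that the files do not state, and serves here to describe and rank peaks within 1 list. Members had a median of 135 (quartiles 109 and 191, range 91.9 to 1776) and one-strand peaks a median of 131 (quartiles 108 and 183, range 91.8 to 2093). The median of all IDR peaks off the X was 132. Above it were 314 of 602 members (52.2%, 48.2 to 56.1) and 736 of 1504 one-strand peaks (48.9%, 46.4 to 51.5), against 49.9% of all promoter peaks off the X. The odds ratio was 1.14 (0.942 to 1.37), and the difference did not pass Fisher's exact test (two-sided, p = 0.193, Benjamini-Hochberg adjusted p = 0.257 over 4 tests of this kind). With a limit of 1000 bp in place of 500 bp, the shares were 52.6% of members and 48.0% of one-strand peaks, an odds ratio of 1.20 that passed Fisher's exact test before adjustment (p = 0.0319). Most members thus had signal values in the range of most one-strand peaks, and the medians lay far closer than the quartiles.

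The strongest member lay between CG11882 and Pglym78, the gene of the glycolytic enzyme phosphoglycerate mutase, at 29148303 on 3R. Its signal value of 1776 was 13.4 times the off-X median and put it at rank 7 of the whole list. Its signal value was 897 in replicate 1 and 885 in replicate 4, where it ranked 6 and 7. The next was EloB/Srp14, at 20579901 on 3R, with 945 in the pooled list, 512 in replicate 1 and 432 in replicate 4. EloB encodes elongin B, a partner in ubiquitin ligases and transcription elongation, and Srp14 a subunit of the signal recognition particle. The third, CG9641/CG3165 at 2977067 on 2L, had 774 in the pooled list, 432 in replicate 1 and 337 in replicate 4. Both replicates placed these 3 peaks above every other member.

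The other strongest members paired genes of varied functions. Wdr24/IntS11, at 29745311 on 3R, had a signal value of 557, with 259 in replicate 1 and 302 in replicate 4. Wdr24 encodes a subunit of the GATOR complex that activates TORC1, and IntS11 the endonuclease of the Integrator complex. RagA-B/CG11970, at 8984811 on 3R, holds the gene of a GTPase that also acts on TORC1 and had 462, with 239 in replicate 1 and 224 in replicate 4. Fur1/Vps33B, at 25473179 on 3R, had 502, with 231 in replicate 1 and 272 in replicate 4. Fur1 encodes a furin protease and Vps33B a protein of vesicle tethering. CG7523/Mps1, at 17670882 on 3R, had 489, with 248 in replicate 1 and 238 in replicate 4. Mps1 encodes a kinase of the spindle assembly checkpoint. Axn, the scaffold of the complex that destroys beta-catenin in the Wnt pathway, faced RpS28a, a ribosomal protein gene. This member, RpS28a/Axn, at 30022776 on 3R, had 500.2, with 227 in replicate 1 and 275 in replicate 4. At pygo a coactivator of Wnt targets faced rod, a kinetochore gene. This peak, at 31580801 on 3R, had 442, with 209 in replicate 1 and 241 in replicate 4.

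The rest of the 20 strongest members had pooled signal values of 392 to 579. They included Chro/Ssl1, with the chromodomain protein Chromator and a TFIIH subunit, and trbd/dmt, with a deubiquitinase and a protein of sister chromatid cohesion. Rop/Ras64B paired a gene of the Sec1/Munc18 family, which acts in vesicle fusion, with a gene of a small GTPase. Tcs5/CHMP2B paired a kinase of tRNA modification with a subunit of the ESCRT machinery. CG5577/asRNA:CR45175 and a pair of tRNA genes for proline were the members of the 20 with non-coding genes. Fbw5/CG9147 and CG17734/CG5214 were also in the set, with Taz/mRpL18 and Ripalpha/RpL7, which come with the ribosomal protein genes. Of the 20 strongest members 10 were on 3R, all had list ranks up to 170, and 12 had their summit between the nearest starts.

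**Figure D2:**
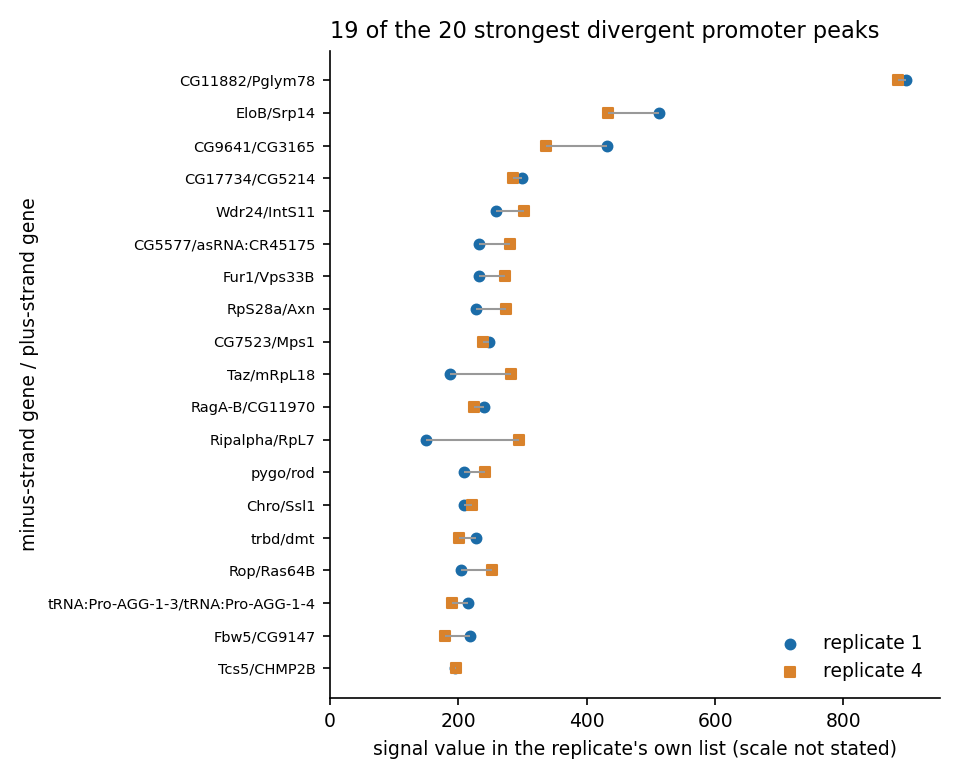
Signal value of 19 of the 20 strongest divergent promoter peaks in the list of each replicate (horizontal axis, scale not stated), one peak per line with the genes on the minus and plus strand. The peak at CG11882/Pglym78 had 897 in replicate 1 and 885 in replicate 4, and Ripalpha/RpL7 had 149 in replicate 1 and 295 in replicate 4.

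As a set, the members had similar median ranks in both replicates, while single members often differed. The rank is the place of the strongest overlapping peak, by signal value, in a replicate's own list of 30000 entries. Members had a median rank of 1629 in replicate 1 (quartiles 770 and 2690) and 1781 in replicate 4 (quartiles 836 and 3316). One-strand peaks had a median rank of 1880 in replicate 1 and 1799 in replicate 4. Spearman's rho between the replicates' ranks was 0.578 over 601 members, 1 having no peak in replicate 1, and 0.528 over 1499 one-strand peaks, as a description, since both sets come from 1 list chosen for ranks that repeat. Among the strongest 3960 peaks of both replicates were 429 of 602 members (71.3%, 67.5 to 74.7) and 1059 of 1504 one-strand peaks (70.4%, 68.1 to 72.7), against 70.7% of all promoter peaks off the X. The odds ratio was 1.04 (0.846 to 1.28), which did not pass Fisher's exact test (two-sided, p = 0.711, adjusted p = 0.711 over the 4 tests).

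The ranks were not equally good in both libraries. Replicate 1 gave the better rank to 351 of 601 members (58.4%, 54.4 to 62.3) and to 696 of 1499 one-strand peaks (46.4%, 43.9 to 49.0). The odds ratio was 1.62 (Fisher's exact test, two-sided, p = 8.1e-07, not adjusted, a comparison chosen after these ranks had been seen). Members thus leaned toward replicate 1 and one-strand peaks toward replicate 4, and what differed between the libraries was not tested. The larger rank exceeded the smaller one by a median factor of 1.68 and by up to 14.3. That largest factor belonged to CG12863/Uhg5, with ranks 301 in replicate 1 and 4292 in replicate 4. It was 13.5 at asRNA:CR45738/Sqor, with ranks 41 and 553 in replicates 1 and 4. At asRNA:CR45895/l(3)73Ah the better rank was in replicate 4, with 6353 in replicate 1 and 716 in replicate 4. CG31650/CG33995 ranked 1641 in replicate 1 and 14419 in replicate 4, and CG10638/CG10681 ranked 379 in replicate 1 and 3224 in replicate 4. At 78 members the replicate peak was shared with another member, whose rank it may then reflect. Sharing with peaks that are not members was not counted, so replicate ranks of further members may be those of a stronger neighbour.

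**Figure D3:**
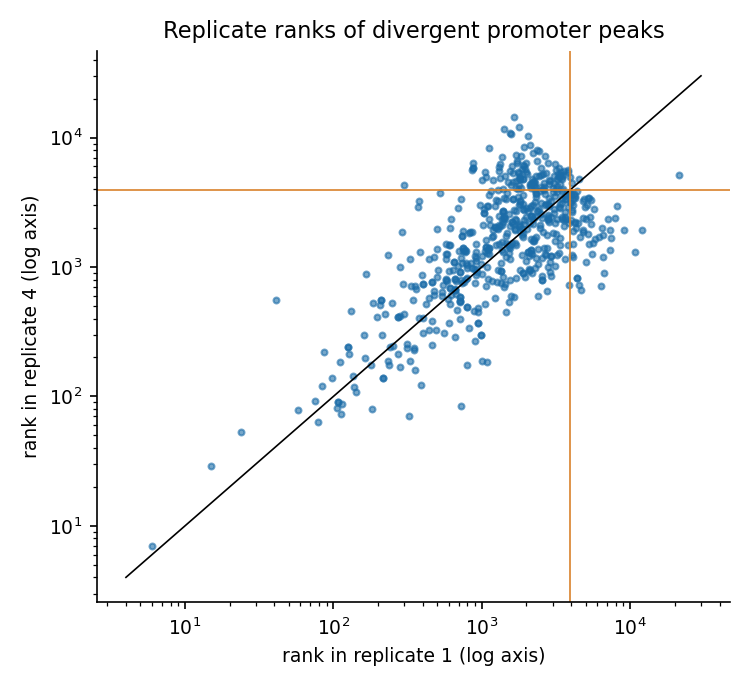
Rank of each divergent promoter peak in replicate 1 and in replicate 4 (log axes, 1 is the strongest), with a diagonal of equal ranks and coloured lines at rank 3960, the length of the reproducible list. Of the 602 members, 429 rank within that limit in both replicates.

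The summits of the members lay near those of the peaks listed in each replicate. The pooled summit lay a median of 14 bp (quartiles 4 and 35) from the summit in replicate 1 and 11 bp (quartiles 2.25 and 33) from that in replicate 4. It was within 50 bp of the replicate 1 summit at 519 of 601 members (86.4%) and of the replicate 4 summit at 513 of 602 (85.2%). The pooled list was made from both replicates, so its summits are not independent of theirs. Peak width said little, since 394 of the 602 members had the same width of 444 bp.

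Seen from the genes, starts that face another start held a summit more often. For each of 11749 protein-coding genes off the X, its outermost start was called bound when an IDR summit lay within 500 bp. Bound were 935 of the 3201 genes with a start of another gene on the opposite strand at most 500 bp upstream (29.2%, 27.7 to 30.8) and 1040 of the 8548 other genes (12.2%, 11.5 to 12.9), against 16.8% of all. The odds ratio was 2.98 (2.70 to 3.29; Fisher's exact test, two-sided, p = 9.45e-99, adjusted p = 3.78e-98 over the 4 tests). Both genes of a pair can be bound through 1 summit, so genes were counted again with each summit given only to its nearest start, a choice made after the first count. Then 513 of the 3201 head-to-head genes (16.0%) and 966 of the 8548 other genes (11.3%) were bound, an odds ratio of 1.50 (Fisher's exact test, two-sided, p = 1.69e-11). The difference was thus smaller but still past the threshold when no summit counted for both genes.

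The share of bound genes did not fall steadily with the distance to the facing start. It was 38.1% of 643 genes at up to 100 bp, 23.9% of 619 over 100 and up to 200 bp, 34.5% of 866 over 200 and up to 300 bp and 24.4% of 651 over 300 and up to 400 bp. It then went down through 19.9% of 422 genes up to 500 bp, 15.7% of 1086 up to 1000 bp and 12.5% of 1039 up to 2000 bp. Genes with a farther facing start or none had 11.5%. The high shares were thus at the shortest distances and at 200 to 300 bp, with a lower share between them. The bins were set after earlier results of these data were known, and the dip was not tested.

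**Figure D4:**
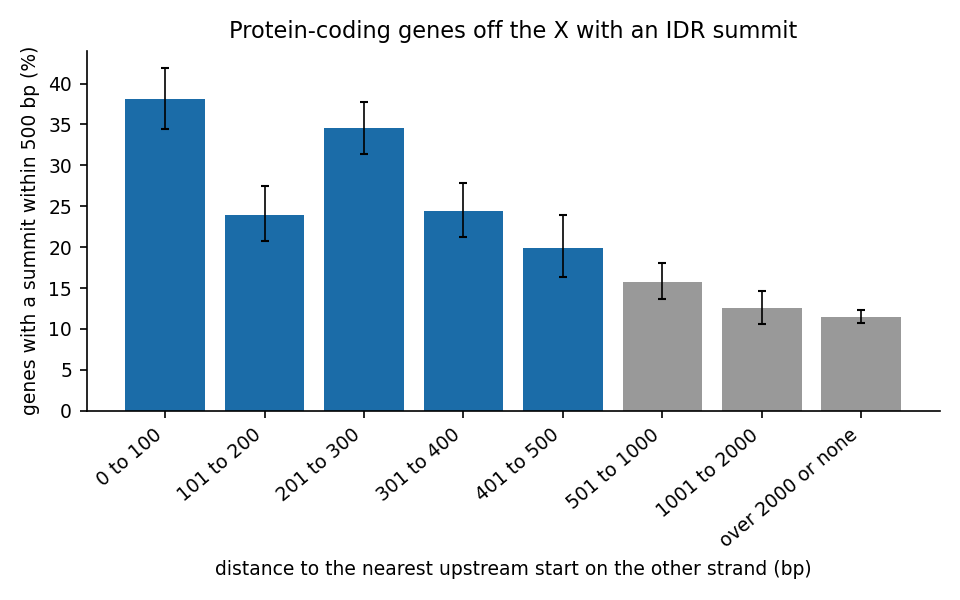
Share of protein-coding genes off the X with a summit within 500 bp of their start, by the distance to the nearest facing start of another gene upstream, with 95% Wilson intervals. The share is 38.1% at up to 100 bp, 23.9% at 100 to 200 bp, 34.5% at 200 to 300 bp and 11.5% beyond 2000 bp or with none.

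Divergent promoters made up more of the promoter peaks off the X than on it. They were 602 of 2106 off the X (28.6%, 26.7 to 30.6) and 64 of 309 on the X (20.7%, 16.6 to 25.6), against 27.6% of all promoter peaks. The odds ratio was 1.53 (1.15 to 2.05; Fisher's exact test, two-sided, p = 0.00338, adjusted p = 0.00675 over the 4 tests). With a limit of 250 bp in place of 500 bp it was 1.26 and did not pass Fisher's exact test (p = 0.213). Genes with a facing start within 500 bp upstream were also more frequent off the X, at 27.2% of 11749 genes, than on it, at 24.8% of 2196 genes, and the part of this in the result was not tested.

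Motifs within 100 bp of the summit, on either strand, set members apart from one-strand peaks. Of 11 motifs, 7 differed by Fisher's exact test (two-sided, Benjamini-Hochberg adjusted p under 0.05), which is 63.6%. Motifs of DREF, BEAF-32 and M1BP, a TATA type sequence and a homeodomain core were more frequent in members, and a GAGA sequence and the nuclear receptor core less frequent. A match is a stretch of letters and not a proven site, and the shorter motifs sit inside the longer ones. Summits lay nearer a start in members (median 47 bp) than in one-strand peaks (median 88 bp), and a member's window can hold starts of both strands. The part of this in the motif differences was not tested.

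The letters TATCGATA, bound by DREF, were in 61 members (10.1%) and 60 one-strand peaks (3.99%), an odds ratio of 2.71 (interval 1.87 to 3.93, by Fisher's exact test adjusted p = 4.84e-07). They were in 7.07% of windows of the same size at all protein-coding starts off the X. Their shorter core CGATA, bound by BEAF-32 and held by every TATCGATA, was in 284 members (47.2%) and 485 one-strand peaks (32.2%), an odds ratio of 1.88 (interval 1.55 to 2.28, by Fisher's exact test adjusted p = 1.32e-09), and in 38.1% of all starts. Of the members with CGATA, 223 did not hold TATCGATA. The M1BP letters GGTCACACT were in 51 members (8.47%) and 65 one-strand peaks (4.32%), an odds ratio of 2.05 (interval 1.40 to 2.995, by Fisher's exact test adjusted p = 0.000535), and in 5.24% of all starts. Among the strongest 1980 peaks of the list this last call was lost (odds ratio 1.60 with an adjusted p of 0.149 by the same exact test). Members with TATCGATA or GGTCACACT numbered 106 (17.6%), and only 6 held both. Within the 100 bp searched, the median distance from match to summit was 28 bp for TATCGATA, 38 bp for GGTCACACT and 46 bp for CAAGGTCA.

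These letters were also most common where the starts were closest. TATCGATA was in 18.1% of the 127 head-to-head members with at most 100 bp between the starts, 16.1% of 87 up to 200 bp, 6.32% of 190 up to 300 bp, 7.14% of 98 up to 400 bp and 5.88% of 68 beyond. GGTCACACT was in 15.7%, 6.90%, 8.42%, 6.12% and 2.94% of the same 5 sets in the same order. Both shares were highest at members with the narrowest stretches, and no test was made. The letters were sought within 100 bp of the summit and not in the stretch itself. Such a window can reach both starts where they are close and may miss a start where they are far apart. The part of this in the order was not tested. Rop/Ras64B and Ripalpha/RpL7, printed above because they hold the letters, are examples with narrow stretches. The strongest members with TATCGATA were EloB/Srp14, Rop/Ras64B and Fbw5/CG9147. With GGTCACACT they were Ripalpha/RpL7, then Mi-2/Prp3, whose genes encode a nucleosome remodeller and a splicing factor, and ox/Dgkepsilon.

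The sequence TATAAA was in 163 members (27.1%) and 231 one-strand peaks (15.4%), an odds ratio of 2.05 (interval 1.63 to 2.57, by Fisher's exact test adjusted p = 5.66e-09), and in 30.2% of all starts. The homeodomain core TAATTA was in 78 members (13.0%) and 88 one-strand peaks (5.85%), an odds ratio of 2.40 (interval 1.74 to 3.30, by Fisher's exact test adjusted p = 4.21e-07), and in 10.2% of all starts. Base composition moved with both. These windows were 58.4 ± 7.43% A and T in members and 52.8 ± 7.64% in one-strand peaks (SD over 602 and 1504 peaks). The same letters reversed, AAATAT, were in 40.4% of members and 23.4% of one-strand peaks (Fisher's exact test over 10 reversed motifs, odds ratio 2.22 with an adjusted p of 1.96e-13). ATTAAT was in 15.0% of members and 6.18% of one-strand peaks (odds ratio 2.67 with an adjusted p of 3.36e-09 by the same exact test). The reversed forms of these AT-only words thus differed too, with odds ratios as high. The reversed TATCGATA was in 2 members and 2 one-strand peaks, an odds ratio of 2.50 on counts too small to compare with the forward word, and the reversed CGATA in 29.6% of members and 26.7% of one-strand peaks (adjusted p = 0.401, Fisher's exact test). The reversed GGTCACACT was in 16 members and 18 one-strand peaks (odds ratio 2.25 with an adjusted p of 0.0706 by the same exact test), and 13 of those 16 lay over a forward match. The part of base composition in the differences of all these motifs was not tested.

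GAGAGA, bound by the GAGA factor of regulated promoters, was in 34 members (5.65%) and 251 one-strand peaks (16.7%), the lowest odds ratio of the 11 at 0.299 (interval 0.206 to 0.433, by Fisher's exact test adjusted p = 1.02e-11). It was in 8.47% of all starts, and among head-to-head coding pairs in 19 of 413 with a peak and 56 of 1027 without (adjusted p = 0.691, Fisher's exact test). Strong members with it included CG5577/asRNA:CR45175 and lncRNA:CR45805/Pdk1, each flanked by a non-coding gene. The E-box CAGCTG was in 19.4% of members and 16.0% of one-strand peaks (adjusted p = 0.0769, Fisher's exact test). The Zelda letters CAGGTAG were in 6 members (0.997%) and 10 one-strand peaks (0.665%; adjusted p = 0.415, Fisher's exact test).

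**Figure D5:**
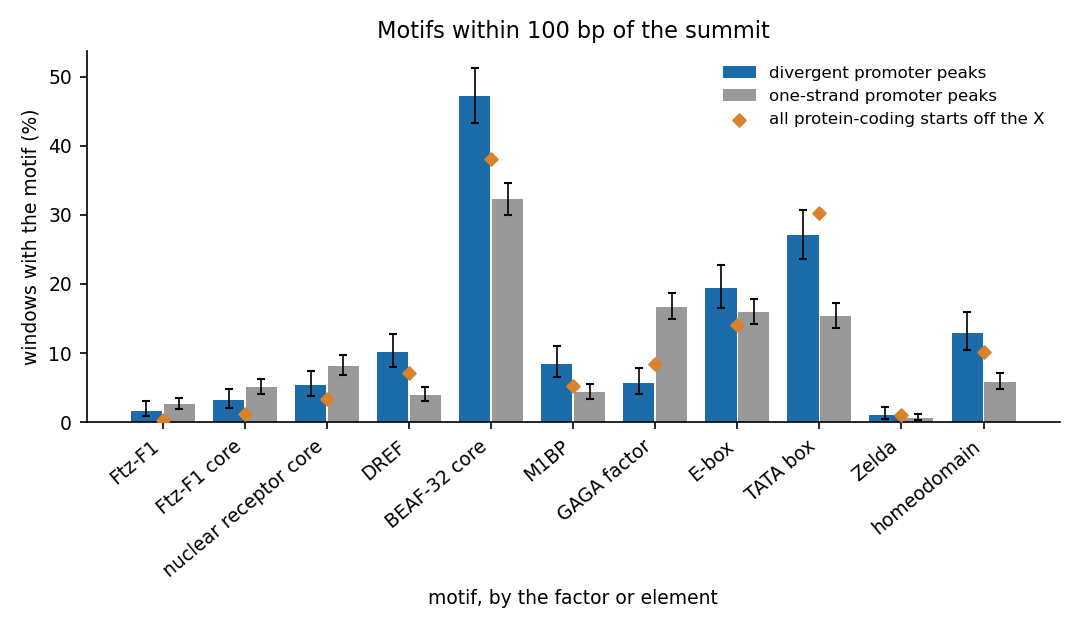
Share of windows of 100 bp on either side of the summit that hold each of 11 motifs, for 602 divergent and 1504 one-strand promoter peaks off the X, with 95% Wilson intervals, and for all protein-coding starts off the X (diamonds). TATCGATA (DREF) was in 10.1% of divergent and 3.99% of one-strand peaks, and GAGAGA in 5.65% of divergent and 16.7% of one-strand peaks.

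The Ftz-F1 type site was rare in members. CAAGGTCA was in 10 members (1.66%) and 39 one-strand peaks (2.59%), against 0.323% of all protein-coding starts off the X. The odds ratio was 0.635 (0.315 to 1.28), which did not pass Fisher's exact test (two-sided, adjusted p = 0.288). AAGGTCA was in 19 members (3.16%) and 76 one-strand peaks (5.05%; adjusted p = 0.0769 by the same exact test). The core AGGTCA was in 32 members (5.32%) and 123 one-strand peaks (8.18%), an odds ratio of 0.630 (interval 0.422 to 0.941, by Fisher's exact test adjusted p = 0.0413). By the same exact test that call was lost with a start limit of 250 bp (adjusted p = 0.157) or 1000 bp (adjusted p = 0.151) and with 1 peak kept per run (adjusted p = 0.0766). A looser form, CAAGGNC, added after the others had been seen, was in 57 members (9.47%, 7.38 to 12.1), 193 one-strand peaks (12.8%, 11.2 to 14.6) and 4.02% of all starts (odds ratio 0.710, Fisher's exact test, two-sided, p = 0.0307, not adjusted). In all 4 forms the share in members was below that in one-strand peaks, though only AGGTCA and CAAGGNC passed, and above that of all starts, which was not tested.

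Members with the site were among the stronger ones. The 10 with CAAGGTCA had a median signal value of 240, against 134 for the other 592, and the 57 with CAAGGNC had 189, against 132 for those without. The strongest with CAAGGTCA was pygo/rod, and another was Hr78/asRNA:CR43933, at 21496733 on 3L, with a signal value of 364, ranking 387 in replicate 1 and 122 in replicate 4. Hr78 encodes a nuclear receptor itself, and here the antisense transcript overlaps it. The lowest of the 10 with CAAGGTCA was at a tRNA gene facing AttD, the gene of an antimicrobial peptide, with 113, so the site was not confined to strong members. Among the 20 strongest members, 13 held CGATA, 3 TATCGATA, 1 GGTCACACT and 1 CAAGGTCA. Over all members the shares of these motifs, in the same order, were 47.2%, 10.1%, 8.47% and 1.66%. The median signal value of members was 134 with CGATA and 137 without it. It was 142 with TATCGATA and 133 without, and 125 with GGTCACACT and 136 without.

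Promoter pairs with and without a peak also differed in some of these letters. Off the X, 1440 pairs of protein-coding genes stood head to head with at most 500 bp between their starts, and 413 of them held a summit (28.7%, 26.4 to 31.1). Motifs were sought within 100 bp of the midpoint between the starts. This set was added after the motif counts had been seen. Between bound and unbound pairs, 3 of the 11 motifs differed by Fisher's exact test (two-sided, adjusted), which is 27.3%. TATCGATA was in 58 of the 413 bound pairs (14.0%) and 93 of the 1027 unbound pairs (9.06%; odds ratio 1.64 with an exact adjusted p of 0.0276). CGATA was in 52.3% of bound and 43.1% of unbound pairs (odds ratio 1.45 with an exact adjusted p of 0.0106). TATAAA went the other way than in the first comparison, with 33.7% of bound and 46.3% of unbound pairs (odds ratio 0.587 with an exact adjusted p of 0.000108). GGTCACACT was in 7.51% of bound and 4.58% of unbound pairs (exact adjusted p of 0.0799), TAATTA in 87 bound and 236 unbound pairs (exact adjusted p of 0.691), and CAAGGTCA in 2 bound and 3 unbound pairs. The bound windows were also less rich in A and T (64.4% in bound and 67.2% in unbound pairs), whose part in these differences was not tested.

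By function, the genes at members included many of the ribosomes. A gene was counted when a member's summit lay within 500 bp of an annotated start of the gene. This held for 1072 of the 11749 protein-coding genes off the X (9.12%). Of 73 genes of the cytoplasmic ribosome 21 did (28.8%), and of 62 genes of the mitochondrial ribosome 17 (27.4%). Of 35 genes of RNA polymerase II and Mediator, the coactivator that joins it to transcription factors, 9 did (25.7%). Shares lower than these, yet above that of all genes, were found for aminoacyl-tRNA synthetases (5 of 30, 16.7%) and the proteasome (6 of 42, 14.3%). The same held for the respiratory chain (10 of 75, 13.3%) and translation factors (6 of 45, 13.3%). Below the share of all genes were the ecdysone response (1 of 12, 8.33%) and DNA replication (1 of 18, 5.56%). The lists were chosen with earlier results of these data known, and no list was tested.

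Genes of these lists also differ in how often they face another start, which the share above depends on. Head to head were 45 of the 62 mitochondrial and 30 of the 73 cytoplasmic ribosomal protein genes, against 27.2% of all genes. In the counts that follow, any IDR summit counted, but only within 500 bp of the gene's outermost start. Among head-to-head genes of the cytoplasmic ribosome 18 of 30 held a summit (60%), and among its other genes 19 of 43 (44.2%), against 29.2% and 12.2% of all genes of the same 2 kinds. For the mitochondrial ribosome it was 16 of 45 head-to-head genes (35.6%) and 3 of 17 others (17.6%). Translation factors had 35.3% of head-to-head genes and 46.4% of the others. The synthetases had 22.2% of 18 head-to-head genes and 16.7% of 12 others, and the proteasome 29.4% of 17 and 12% of 25. The respiratory chain had 33.3% of 27 and 14.6% of 48 in the same order. RNA polymerase II and Mediator had 40.9% of 22 and 15.4% of 13, and DNA replication 12.5% of 8 and 20% of 10. Among head-to-head genes, the synthetases and DNA replication were thus below the share of all such genes, and the proteasome was close to it. None of the 12 ecdysone response genes was head to head, and 5 of them (41.7%) held a summit.

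The strongest member of the cytoplasmic ribosome list after RpS28a/Axn was Ripalpha/RpL7, at 10201032 on 2L, with a signal value of 446. It had 149 in replicate 1 and 295 in replicate 4, and ranked 323 in replicate 1 and 71 in replicate 4, the better rank being in replicate 4. RpL34b/CG8132, at 9401302 on 3R, had 391, with 189 in replicate 1 and 204 in replicate 4. Of the mitochondrial ribosome, Taz/mRpL18 at 12756262 on 2R led with 468, 187 in replicate 1 and 282 in replicate 4. Taz encodes tafazzin, which remodels the mitochondrial lipid cardiolipin, so both genes serve that organelle. It was followed by mRpL23/CG9004, at 2373574 on 3L, with 373, 172 in replicate 1 and 199 in replicate 4. Art3/mRpS10, at 15229517 on 3R, had 344, with 176 in replicate 1 and 167 in replicate 4. Art3 encodes an arginine methyltransferase.

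Leading members of most other lists were weaker. In the proteasome list Slik/Rpn8 led with a signal value of 218, ranking 236 in replicate 1 and 174 in replicate 4. Its rank in the pooled list was only 697, so these replicate ranks may be those of a neighbouring peak. RanBP3/Rpt5 had 151, ranking 976 and 3028 in replicates 1 and 4. Rpn8 and Rpt5 encode subunits of the regulatory particle. In the respiratory chain, Sec3/COX7B had 173, ranking 615 in replicate 1 and 1992 in replicate 4. Among translation factors, eIF6/asRNA:CR45928 had 272, ranking 342 in replicate 1 and 552 in replicate 4. Among the synthetases, Hem/IleRS had 259, ranking 439 in replicate 1 and 572 in replicate 4. MED6/Naa80 led the Mediator genes with 257, ranking 233 in replicate 1 and 1233 in replicate 4. The replication gene was PolA2, a subunit of the polymerase that primes DNA synthesis, at CG31064/PolA2, with 195. The ecdysone gene was Hr78, whose peak with the Ftz-F1 type site stands above. At the pairs mRpL55/ATPsynD (138) and RpL28/eIF1 (133), chosen after their values were seen, each gene belonged to a list of its own.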

How the data were processed

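Chromatin immunoprecipitation sequencing of Ftz-F1 in 2 embryo libraries was deposited as peak lists in dm6 and dm3; only dm6 lists were used, since no dm3 annotation was at hand. A listing deposited with the files says that the lists of each replicate hold peaks and background regions (30000 entries) and that the thresholded list came from an irreproducible discovery rate (IDR) analysis of both. Not given in the labels or files used here are the aligner, the caller, the threshold and what served as control. The signal column is a score deposited by the authors, of unstated scale, used for ranks and description; the −log10 q-value column deposited by the authors is capped and was not used. The sonicated fragments have a labelled size of 200 to 800.

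Summits were set 1-based against transcript starts of Ensembl release 115 (BDGP6.54), without transposable elements. A replicate's rank for a peak is that of its strongest peak overlapping by at least 1 bp. Counts of peaks or genes were compared by Fisher's exact test (two-sided), with Benjamini-Hochberg adjustment over 11 motifs or over the 4 single comparisons, threshold 0.05; shares have 95% Wilson intervals. Peaks are not replicates of a condition. Python 3.11.15, scipy 1.17.1, pandas 2.3.3 and statsmodels 0.14.6 were used, and the functions were tested on simulated data. The rule for named genes took the 20 members with the highest signal, up to 3 per gene list, the 3 strongest with each passing motif and with CAAGGTCA, the 5 largest rank ratios and the 2 peaks on each side of the 500 bp limit; further names were chosen after their values were seen. A few members that the rule names are not reported here. The members and lists were chosen with earlier results of these data known. Alternatives covered the start limit, coding starts only, the strongest peaks, 1 peak per run, the motif window, the overlap rule and each replicate left out.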

Additional observations from a re-analysis of the deposited data

How the results depend on the processing

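No paired analysis was possible because there is 1 group. Depth is unknown from peak lists, which limits every statement on a missing peak, and without a replicate the members came from an equal number of top peaks in the remaining library. Over the alternatives, 44 of 52 values that answer a comparison kept their direction and side of the threshold, or stayed close for values with no test. With a start limit of 250 bp, members numbered 384, 74.7% of summits lay between the starts, and the odds ratio of the divergent share off the X against on the X was 1.26 and did not pass (Fisher's exact test, p = 0.213). With 1000 bp, members numbered 905, 58.5% of summits lay between the starts, and the odds ratio for signal above the median, members against one-strand peaks, was 1.20 and passed (Fisher's exact test, p = 0.0319). The strongest 1980 peaks of the list held 316 members, fewer by construction. Leaving out a replicate gave 62.4% to 70.1% of summits between the starts, 62.4% without replicate 1. The odds ratio of CAGGTAG, which passed in no setting, was 0.687 without replicate 1 and 2.19 without replicate 4. Motifs that passed numbered 6 to 9 over the alternatives. CAGCTG, higher in members, passed without replicate 1 (adjusted p = 0.0355, Fisher's exact test), without replicate 4 (adjusted p = 0.00186), with coding starts only (adjusted p = 0.0313) and with 1 peak per run (adjusted p = 0.0448). AAGGTCA, lower in members, passed without replicate 1 (adjusted p = 0.0091, Fisher's exact test), without replicate 4 (adjusted p = 0.0342) and within 50 bp of the summit (adjusted p = 0.0473). The causes were not tested.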
